A study of Mus musculus with 6 samples.

Results

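The DEAD and DEAH box RNA helicases were followed here in the mouse uterus 6 h after progesterone. Members were the genes whose symbol begins with Ddx or Dhx and a number. Each had to be read by a probe set, the group of oligonucleotides that stands for a transcript on the array, that is annotated to that gene alone. Of 51 such genes, the 2 interferon-pathway RNA sensors Ddx58 and Dhx58 were left out, which gave 49 members among 18193 genes tested. Where a gene had several, the one of highest average level on the 6 arrays stood for it, and the rule itself uses no measured change.

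These proteins use ATP to unwind short RNA duplexes or to pull proteins off RNA, and they are named after the amino acids of a conserved motif that binds and hydrolyses ATP. In the nucleolus a large set of them remodels pre-ribosomal RNA during assembly of the ribosomal subunits, and another set drives the rearrangements of the spliceosome. Others act in mRNA export, translation, mRNA decay, transcription and mitochondria. The making of ribosomes accompanies growth of a tissue, and the uterus is an organ whose growth is under hormonal control.

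All mice were females of mixed background that carried the floxed Gata2 allele (GATA2 f/f), and no Cre recombinase is named in their descriptions. They were ovariectomized when 6 weeks old. When 8 weeks old they were given 100 µl of sesame oil, alone or with 1 mg of progesterone, and the uterus was taken 6 h later. There were 3 arrays per group, and the RNA is said to come from pools of 3 mice. It is not stated if a separate pool went onto each array, so p-values measure only the spread among these 6 samples, part or all of which may be technical. The comparison asks which transcripts differ within hours of the hormone. Levels are on the log2 scale, where a difference of 1 is a doubling. They come from RMA, which corrects background, equalizes the distributions of the arrays and then summarizes each probe set.

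Markers of uterine smooth muscle (Acta2, Des), stroma (Pdgfra, Vim) and epithelium (Epcam, Krt8) were abundant on all arrays, with median list levels of at least 10.10. None of the 5 markers of epithelium, stroma, smooth muscle, endothelium or leukocytes passed the test in either direction (limma, with 1, 1, 1, 2 and 0 at an unadjusted p under 0.05). The change was below 0 in all 5 epithelial markers, with a median of -0.36, and in all 5 endothelial markers, with a median of -0.27. The summed epithelial level was 13.34 to 13.54 with oil and 12.55 to 13.32 with progesterone, so these ranges did not overlap. Other transcripts set single arrays apart. S100a8, an abundant neutrophil transcript, was at 4.34 to 5.01 on oil replicates 1 and 2 and progesterone replicate 1, and at 11.82 to 12.48 on the other 3 arrays. Of 4 liver transcripts measured, Alb was at 8.71 on oil replicate 3 and at 3.96 to 4.29 on the other arrays, and Ttr was 6.09-fold higher with progesterone (limma adjusted p = 0.0334). The summed level of 3 adipocyte markers ran from 8.91 to 9.99 with oil and from 6.62 to 9.0 with progesterone (log2 of the summed linear values), and that of 4 proliferation markers ran from 8.23 to 10.72 and from 9.07 to 10.96. Array medians over all probe sets lay between 5.51 and 5.53. In whole tissue, fewer cells of a type and less RNA per cell cannot be told apart.

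Of the 49 helicases, 7 were higher and 1 was lower after progesterone, with 41 not past the threshold (limma, Benjamini-Hochberg adjusted p under 0.05 over all genes). Over all genes tested 5.92% were called higher and 5.83% lower. The rises were those of Ddx21 (2.26-fold), Ddx39a (2.10-fold), Ddx31 (1.91-fold), Dhx29 (1.68-fold), Ddx18 (1.44-fold), Ddx54 (1.31-fold) and Ddx20 (1.30-fold). Dhx40 was the only helicase past the threshold as lower, by 1.76-fold. By role, 4 of 16 nucleolar helicases of ribosome assembly were higher, 1 of 11 splicing helicases and 2 of the 22 with all other roles. The 3 progesterone arrays lay entirely above the 3 oil arrays in 18 members and entirely below them in 4, against 14.5% and 15.9% of all genes. At an unadjusted p under 0.05, a cut given below beside several counts, 26.0% of all genes passed, 12.2% higher and 13.8% lower.

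**Figure D1:**
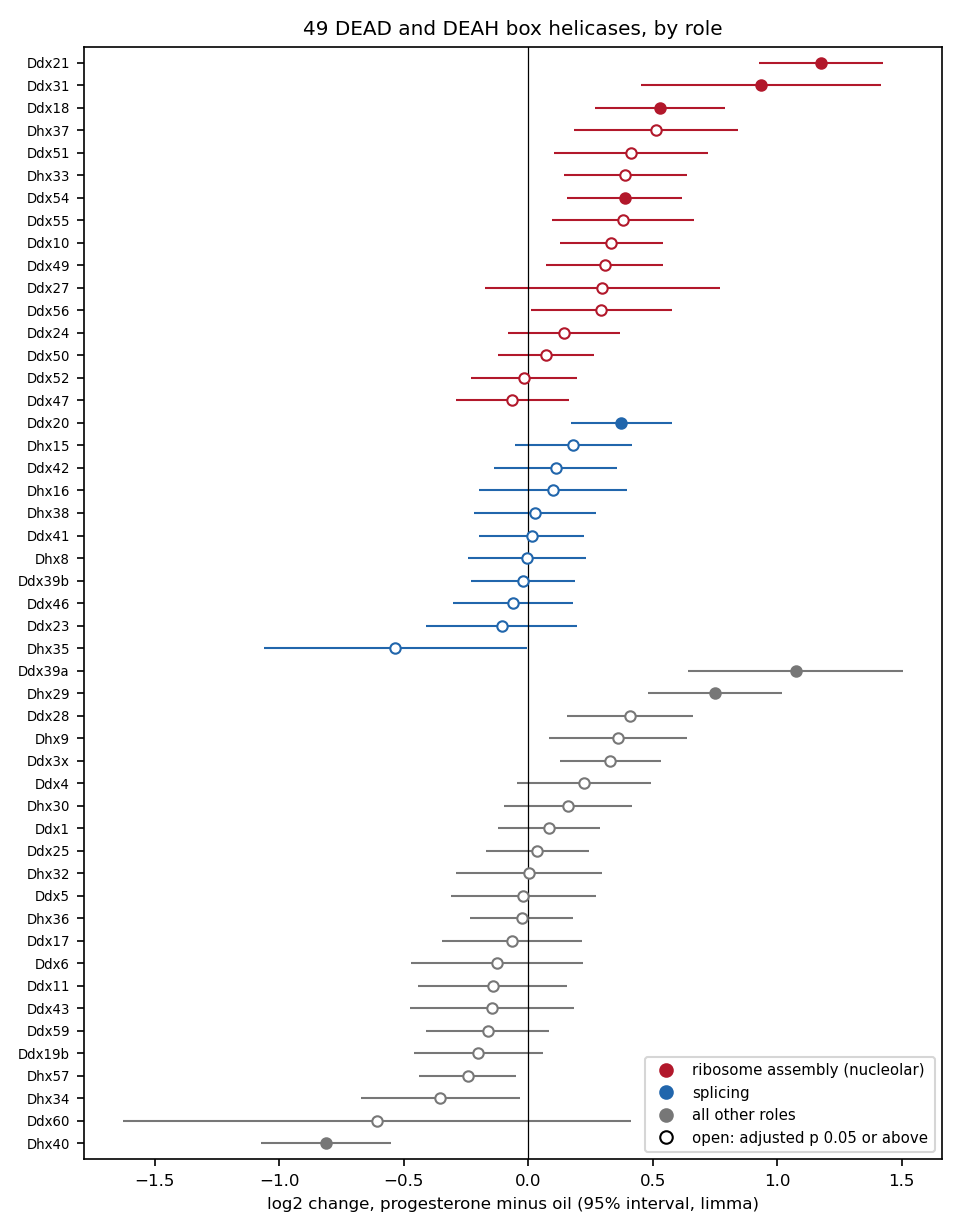
Log2 change (progesterone minus oil) of the 49 helicases, 1 row per gene, with the 95% interval from limma. Filled points have an adjusted p under 0.05. Among the 16 nucleolar members (red) 14 points lie to the right of 0, among the 11 splicing members (blue) 6 and among the 22 others (grey) 10.

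The nucleolar helicases had a median log2 change of 0.36, against -0.017 over all genes, 0.013 for the splicing helicases and -0.023 for those with all other roles. Their change was positive in 14 of 16 members, as it was in 46.3% of all genes. In 11 of the 16 the arrays of the groups lay apart, always with progesterone higher. Over all genes 14.5% lay apart as higher and 15.9% as lower. At an unadjusted p under 0.05 there were 11 nucleolar members, all higher (limma, against 12.2% of all genes). The median change of the nucleolar members stayed between 0.21 and 0.40 under the other settings tried, and it was lowest without the 3 arrays with high S100a8. That of the helicases of all other roles turned to 0.085 without those arrays, 0.0725 with the mean of probe sets and 0.02 with centring on array medians. It was 0.0325 without progesterone replicate 3 and 0.04 without the arrays numbered 3, and stayed below 0 under the remaining settings.

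Ddx21 removes R-loops and couples transcription by RNA polymerases I and II to processing of ribosomal RNA, and it had the largest change of the 49. Its levels were 8.28, 8.13 and 8.38 on oil replicates 1 to 3 and 9.34, 9.55 and 9.43 on progesterone replicates 1 to 3 (log2). The groups stood apart by far more than their spread. The log2 change was 1.18 ± 0.106 (SE, limma adjusted p = 0.00188), and its second probe set, at a lower level, differed by 1.15 (adjusted p over all probe sets 0.029). The call held without any single array, with an adjusted p of at most 0.0144.

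Ddx50 is the paralogue of Ddx21 and its neighbour among protein-coding genes in the RefSeq table. It was at 10.14, 10.15 and 10.11 with oil and 10.25, 10.15 and 10.21 with progesterone (log2). These ranges touch, and the change was 0.07 with a 95% interval from -0.12 to 0.26, which does not reach the interval of Ddx21 (0.93 to 1.43). Other probe sets of Ddx50, at mean levels of 7.62 and 7.53, had larger changes of 0.20 and 0.19. Their intervals reached up to 0.50 and 0.48, and neither passed. The difference between the probe sets used for Ddx21 and Ddx50 moved by 1.11 between groups, from -1.87 ± 0.145 to -0.76 ± 0.156 (log2, SD, n = 3 per group). The exact two-sided permutation test gave p = 0.1 for it, the smallest that 3 arrays against 3 allow, and 0.15 after adjustment over 3 paralogue pairs.

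Ddx31, which has a part in assembly of the large subunit, was at 6.08, 5.59 and 5.98 with oil and 7.10, 6.93 and 6.42 with progesterone (log2). All progesterone arrays were higher, but the gap between the nearest arrays was no larger than the spread within the progesterone group. The change was 0.93 ± 0.205 (SE, limma adjusted p = 0.0302), and the second probe set passed as well, with a change of 0.76. Of the 6 fits without 1 array, that without progesterone replicate 3 kept the call, and in the other 5 the adjusted p reached 0.105.

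Ddx18 is the counterpart of a yeast helicase needed for both ribosomal subunits. It was at 8.81, 8.91 and 8.75 with oil and 9.18, 9.50 and 9.38 with progesterone (log2), a change of 0.53 ± 0.111 (SE, limma adjusted p = 0.0255). A second probe set gave 0.53 and passed over all probe sets, and another, at a mean level of 4.66, differed by 0.11 and did not. Ddx54, a large-subunit factor, went from 9.37, 9.51 and 9.60 to 9.82, 9.87 and 9.95, a change of 0.39 (limma adjusted p = 0.0463). Both genes had separate groups, with the smaller difference in Ddx54. Without 1 array, the call of Ddx18 held in the fit without progesterone replicate 1 alone and that of Ddx54 in none, with adjusted p up to 0.0892 and 0.146. Ddx54 also missed the threshold with renormalization by quantiles (0.065), the mean of its probe sets (0.0694) and adjustment over all probe sets (0.058).

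A further 7 nucleolar helicases had arrays that lay apart without passing, with changes between 0.29 and 0.51 and adjusted p between 0.0533 and 0.176. Over all genes, called or not, the arrays lay apart as higher in 14.5%. Dhx37, which releases U3 snoRNA from the small-subunit precursor, was at 4.47, 4.38 and 4.18 with oil and 4.61, 4.91 and 5.05 with progesterone. Dhx33 was at 7.92, 7.60 and 7.71 with oil and 8.13, 8.13 and 8.14 with progesterone. Each of these pairs of groups is separated, by 0.14 and 0.21 between the nearest arrays. Ddx51 was at 7.40, 7.31 and 7.25 and then at 8.00, 7.61 and 7.59. Its adjusted p was 0.0917, and 0.0438 with the replicate block. Ddx55, whose yeast counterpart acts in large-subunit assembly, was at 6.70, 6.62 and 6.33 with oil and 6.83, 7.0 and 6.96 with progesterone. Progesterone replicate 1 came closest to the oil arrays. Ddx10 was at 7.98, 8.02 and 7.88 and then at 8.23, 8.31 and 8.34 (adjusted p = 0.0533). Besides Ddx51, some settings brought Ddx10, Dhx33 and Dhx37 past the threshold. The adjusted p of Ddx10 was 0.0198 to 0.0486 with an offset of 32 added on the linear scale, centring or either filter on dim genes. It was 0.2755 with the mean of probe sets and 0.0648 with the replicate block. No fit without 1 array called Ddx10 (up to 0.146). The adjusted p of Dhx33 was 0.0296 to 0.0493 with the offset, either filter or the mean of probe sets. No fit without 1 array called Dhx33 (up to 0.183), nor did the replicate block (0.0523). That of Dhx37 was 0.048 with quantile renormalization and 0.032 without progesterone replicate 1. The other fits without 1 array did not call Dhx37 (up to 0.161), nor did the replicate block (0.0669). Ddx49 was at 8.13, 8.29 and 8.04 and then at 8.39, 8.50 and 8.49, and Ddx56 had a change of 0.29 (adjusted p = 0.176). With the mean of probe sets, Ddx49 had a change of 0.14 (adjusted p = 0.5695) and Ddx55 of 0.265 (adjusted p = 0.1424).

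The remaining 5 nucleolar members had overlapping groups. Ddx27 varied most among them: its change was 0.30, with a 95% interval from -0.18 to 0.77. Ddx24 had a change of 0.14, Ddx52 of -0.017 and Ddx47, which acts on the small-subunit precursor, of -0.063. The intervals of Ddx47 (-0.29 to 0.16) and Ddx52 (-0.23 to 0.20) leave out a rise of the size seen in Ddx21, Ddx31 or Ddx18.

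**Figure D2:**
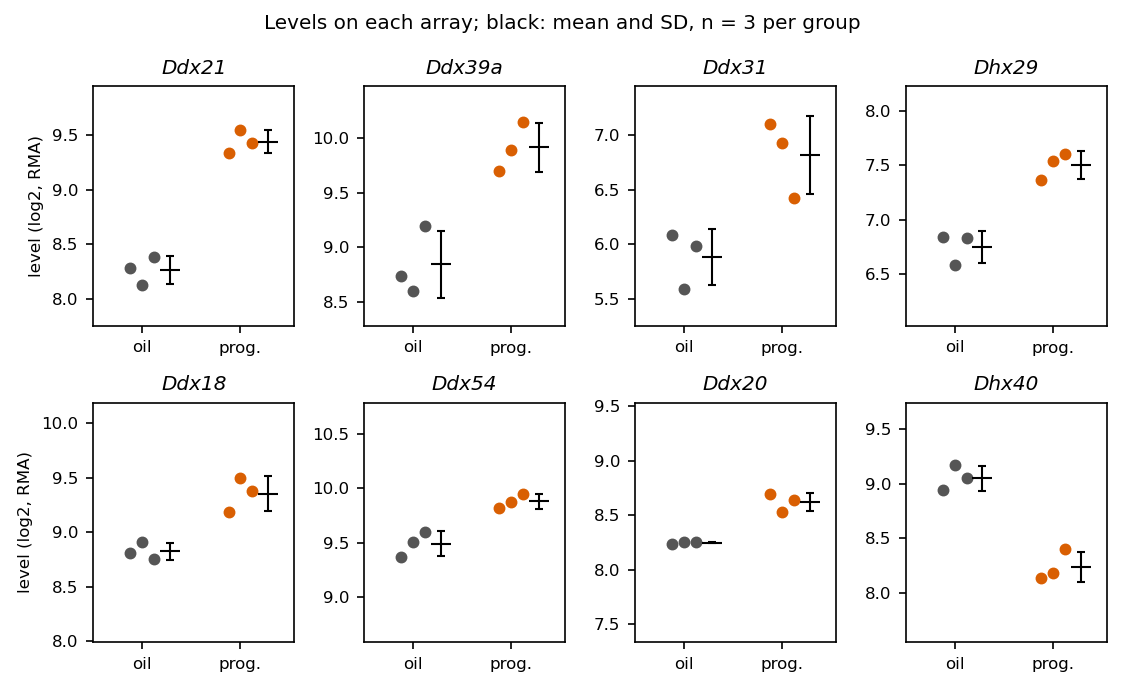
Levels (log2, RMA) of the 8 helicases past the threshold on each array, with oil in grey and progesterone in orange (replicates 1 to 3 from left to right), and the mean and SD in black. Each panel spans the same height on the log2 scale. In each panel the progesterone points lie to 1 side of the oil points, from 9.34 to 9.55 against 8.13 to 8.38 for Ddx21.

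Because several nucleolar helicases were higher together, the sequences just before their gene starts were read. The 100 bases before the start are given below for 3 that rose and for Ddx47, whose groups overlapped, from RefSeq promoters on GRCm38.p6 (5′ to 3′ on the strand of the gene). The windows are chr10:62602299-62602398 (minus strand) for Ddx21, chr1:121567981-121568080 (minus strand) for Ddx18, chr2:28840306-28840405 (plus strand) for Ddx31 and chr6:135011512-135011611 (plus strand) for Ddx47. Capitals mark CGGAAG, the core of the sites that ETS factors bind, and GGGCGG, the GC box, on either strand.
Ddx21: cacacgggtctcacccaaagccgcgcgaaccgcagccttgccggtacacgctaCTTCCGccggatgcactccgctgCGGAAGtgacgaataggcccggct
Ddx18: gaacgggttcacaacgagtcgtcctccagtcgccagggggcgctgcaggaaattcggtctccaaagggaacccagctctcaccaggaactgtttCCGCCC
Ddx31: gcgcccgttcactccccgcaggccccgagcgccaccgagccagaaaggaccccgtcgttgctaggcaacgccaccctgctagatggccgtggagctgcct
Ddx47: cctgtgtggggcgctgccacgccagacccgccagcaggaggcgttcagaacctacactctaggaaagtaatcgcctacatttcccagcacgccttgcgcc

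Ddx21 holds CGGAAG in both orientations within this stretch, while Ddx31 and Ddx47 hold neither motif there. Promoter windows of 300 bases, from 250 before to 50 after the start, were found for 44 of the 49 helicases. CGGAAG or its complement CTTCCG was present in 27 of the 44 genes (61.4%), against 27.1% of the 14452 genes tested that have such a window and 16.9% of all 32851 windows. It was in 12 of 16 nucleolar helicases and 7 of 9 splicing helicases. Among the 12 were all the nucleolar members whose groups overlapped, Ddx24, Ddx27, Ddx47, Ddx50 and Ddx52. The nucleolar members without it, Ddx31, Ddx51, Dhx33 and Ddx56, all had arrays that lay apart, as had the others of the 12. Of the 19 helicases of all other roles, 8 held it. The differences between these shares were not tested. GGGCGG or CCGCCC was in 12 of 16 nucleolar helicases and 57.3% of the genes tested. CACGTG, the E-box bound by Myc and Max, was in 1 of 16 nucleolar helicases (Dhx33) and in 10.2% of the genes tested. AGAACA or TGTTCT, the half-site of progesterone and glucocorticoid receptor elements, was in 1 of 16 (Ddx47) and in 17.0%. Of the 6 helicases called higher that have a window, 4 held CGGAAG, 5 GGGCGG, 3 CACGCG, and none CACGTG or AGAACA, counting both orientations, too few windows to set against these shares. Of all windows of this length, 35.7% held the GC box, 7.15% the E-box and 19.0% the half-site. A further 4 motifs were searched, to make 8 in all, each on both strands. CACGCG was in 6 of 16 nucleolar helicases, in 16.2% of the genes tested and in 9.27% of all windows. The CCAAT box was in 9 of 16, in 6070 of the 14452 genes tested and in 37.4% of all windows. TATAAA was in 1 of 16, 11.5% and 13.6%, and TCGCGA was in 0 of 16, 4.44% and 2.50%. Motifs were counted separately, so a stretch may belong to more than 1 of them. These matches describe letters in a window and not sites in use.

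Of the 11 splicing helicases 1 was higher and none was lower (limma, against 5.92% and 5.83% of all genes), and 10 missed the threshold. At an unadjusted p under 0.05 there was 1 in each direction, against 26.0% of all genes in either direction. Ddx20, or Gemin3, a subunit of the SMN complex that builds spliceosomal snRNPs, was the 1 that rose. It was at 8.24, 8.25 and 8.25 with oil and 8.69, 8.53 and 8.64 with progesterone (log2), a change of 0.37 ± 0.0863 (SE, limma adjusted p = 0.0354). The oil arrays differed by only 0.01, and the call held in none of the 6 fits without 1 array (adjusted p up to 0.116). The gene has a single probe set.

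Dhx15, which takes the spliceosome apart at the end of its cycle and also serves in ribosome assembly, was at 11.28, 11.40 and 11.37 with oil and 11.39, 11.64 and 11.56 with progesterone. These groups overlapped, and the change of 0.18 had an interval from -0.055 to 0.42. A second probe set, at a mean level of 10.99, overlapped as well, with a change of 0.26 (95% interval -0.0065 to 0.53). Ddx39b, which is needed for U2 snRNP binding and mRNA export, was at 11.90, 11.83 and 11.79 and then at 11.91, 11.78 and 11.77. The nearly equal groups gave a change of -0.02 (95% interval -0.23 to 0.19). On the probe sets used, Ddx46, Ddx23, Dhx16, Dhx38 and Dhx8, the other catalytic helicases of the splicing cycle, changed by -0.11 to 0.11. The spliceosome helicases Ddx41 and Ddx42 lay in that range too. Another probe set of Ddx46, at a mean level of 6.29, had its arrays apart as higher by 0.25 and did not pass. The remaining ones of Ddx46 had changes of 0.027 to 0.09. Dhx35, found in active spliceosomes, had its arrays apart in the other direction, at 7.49, 7.57 and 7.68 with oil and 7.38, 7.26 and 6.5 with progesterone. Its change of -0.53 did not pass (adjusted p = 0.188), and progesterone replicate 3 stood well below the others.

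The difference between the median level of the nucleolar and the splicing helicases was 0.34, 0.24 and 0.16 on the oil arrays and 0.22, 0.40 and 0.47 on the progesterone arrays (log2). These values overlap, and their means differed by 0.12. The difference became 0.58 with the mean of probe sets, and it turned to -0.015 without the lowest 50% of genes and to -0.07 without the 3 arrays with high S100a8. A median of levels follows the probe sets in the middle of each list, so it need not move when most members do. For members measured against their own mean over the 6 arrays, the nucleolar median was -0.14, -0.11 and -0.27 on the oil arrays and 0.09, 0.19 and 0.17 on the progesterone arrays. The splicing median on that scale was 0.07, -0.0017 and -0.06 with oil and 0.07, -0.02 and -0.04 with progesterone. The nucleolar values thus separated by group and the splicing values did not, a description of lists chosen with earlier results known.

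Among helicases of mRNA export, translation and decay, 2 of 8 were higher and none lower, against 5.92% and 5.83% of all genes. The other 6 missed the threshold (limma). Of the 8, 3 were up and 1 down at an unadjusted p under 0.05, against 12.2% and 13.8% of all genes. Ddx39a, a close relative of Ddx39b in mRNA export, was at 8.73, 8.60 and 9.19 with oil and 9.70, 9.89 and 10.15 with progesterone (log2). The change was 1.07 ± 0.183 (SE, limma adjusted p = 0.0137), and 3 of its other 4 probe sets passed, with changes of 0.94 to 1.28. Within each group replicate 3 was highest, and replicate 3 was also highest in each group for the summed proliferation markers (10.72 with oil and 10.96 with progesterone). Without both arrays numbered 3, the change was 1.13 (adjusted p = 0.0153). Its call ended, with an adjusted p of at most 0.0598, without oil replicate 1, oil replicate 2 or progesterone replicate 2. The difference between Ddx39a and Ddx39b moved by 1.09, from -3.00 ± 0.348 to -1.91 ± 0.295 (SD, n = 3 per group, exact permutation p = 0.1, 0.15 adjusted over 3 pairs).

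Dhx29 helps the small ribosomal subunit to scan structured leaders of mRNAs. It was at 6.84, 6.58 and 6.83 with oil and 7.36, 7.54 and 7.60 with progesterone (log2), and the gap between groups was larger than the spread within them. The change was 0.75 ± 0.115 (SE, limma adjusted p = 0.00979), and the call held without any single array (adjusted p up to 0.0421). A second probe set, at a mean level of 3.83, differed by 0.11 and did not pass.

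Ddx3x, an X-linked helicase of translation initiation, was at 12.32, 12.36 and 12.45 with oil and 12.74, 12.66 and 12.72 with progesterone. The groups lay apart, and the adjusted p of 0.0507 fell just short of the threshold. All 3 of its probe sets gave a similar change, 0.33, 0.33 and 0.38. The adjusted p was between 0.0146 and 0.0478 with an offset of 32, centring on array medians, quantile renormalization or a variance trend. It lay in that range as well with either filter on dim genes or the mean of probe sets. With the replicate block it was 0.0599, and with adjustment over all probe sets 0.0673. No fit without 1 array called Ddx3x (0.082 to 0.160). Ddx6, the helicase of P-bodies and translational repression, was at 11.49, 11.50 and 11.42 with oil and 11.65, 11.29 and 11.09 with progesterone. The progesterone arrays lay on both sides of the oil arrays, and its other probe sets gave 0.13, 0.60 and 0.41 against -0.13 for the one used, none past the threshold. Dhx36, a resolvase of G-quadruplexes, had a change of -0.027 on the probe set used and of 0.28 and 0.29 on the others. Dhx34, a factor of nonsense-mediated decay, had a change of -0.35 (adjusted p = 0.152), and Ddx19b, of mRNA export at the nuclear pore, of -0.20. Ddx25, a testis helicase, was at 4.03 to 4.20 on all arrays.

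Ddx5 and Ddx17 are paralogous coregulators of transcription, also of steroid receptors, and help to process microRNAs. Ddx5 was at 12.58, 12.35 and 12.61 with oil and 12.66, 12.50 and 12.32 with progesterone, and Ddx17 at 12.74, 12.63 and 12.68 and then at 12.76, 12.71 and 12.39. Both overlapped between groups on the probe sets used, with changes of -0.02 (95% interval -0.31 to 0.27) and -0.063 (-0.34 to 0.22). A doubling lies outside either interval. Another probe set of Ddx17, at a mean level of 11.84, had a change of -0.18. A further one, at 5.95, had its arrays apart as higher by 0.34, and neither passed. The difference between the probe sets used for Ddx5 and Ddx17 moved by 0.043 between groups (exact permutation p = 0.7). Dhx9, or RNA helicase A, had its arrays apart with a change of 0.36 (adjusted p = 0.0982), and 0.37 on its second probe set. Ddx1, part of the tRNA ligase complex, had a change of 0.083.

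In mitochondria, Ddx28 and Dhx30 both take part in assembly of the mitochondrial ribosome. Ddx28 was at 6.36, 6.59 and 6.6 with oil and 6.99, 6.98 and 6.81 with progesterone. Its groups lay apart with a change of 0.41 (adjusted p = 0.0519), while those of Dhx30 overlapped on the probe set used, with a change of 0.16. Other probe sets of Dhx30, at mean levels of 9.58 and 9.35 against 9.63, had arrays apart, with changes of 0.29 and 0.25. A further one, at 7.25, had a change of -0.06, and none of them passed. Germ-line helicases were near background: Ddx4, the vasa homologue, was at 3.00 to 3.47, where the TrpnX controls, bacterial sequences that mouse RNA should not match, reached 3.34. Ddx43 was at 3.57 to 3.99. Ddx11, a helicase of sister chromatid cohesion that carries the name but acts on DNA, had a change of -0.14.

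Dhx40, a DEAH helicase of little-known function, had the largest fall of the 49. It was at 8.94, 9.17 and 9.05 with oil and 8.14, 8.18 and 8.40 with progesterone (log2). No progesterone array came near the oil arrays, and the change was -0.81 ± 0.111 (SE, limma adjusted p = 0.00704). Its call held without any single array (adjusted p up to 0.0388), and it has a single probe set. Dhx57 was also lower on every progesterone array, by 0.24 (adjusted p = 0.113). Ddx60, an interferon-induced helicase, spread from 5.06 to 6.87 within the oil group and from 5.12 to 5.84 with progesterone, and had the widest interval of the 49, from -1.63 to 0.41. Dhx32 and Ddx59 had changes of 0.0033 and -0.16.

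Of the 49 members, 32 have more than 1 probe set and 17 have 1. Among the 58 other probe sets, 6 passed over all probe sets, where 4.90% of all probe sets were called higher and 4.09% lower. They belonged to Ddx21, Ddx31, Ddx18 and Ddx39a, all in the direction of the probe set used. The other probe sets at a mean level of at least 6, 31 in number, differed from the one used by a median of 0.09 in log2 change, and the 27 dimmer ones by 0.15. Probe sets whose name ends in x_at, as for Ddx39a and Ddx54, hold probes that may match other transcripts. For Ddx39a another probe set, without that ending, differed by 0.94 and passed.

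**Figure D3:**
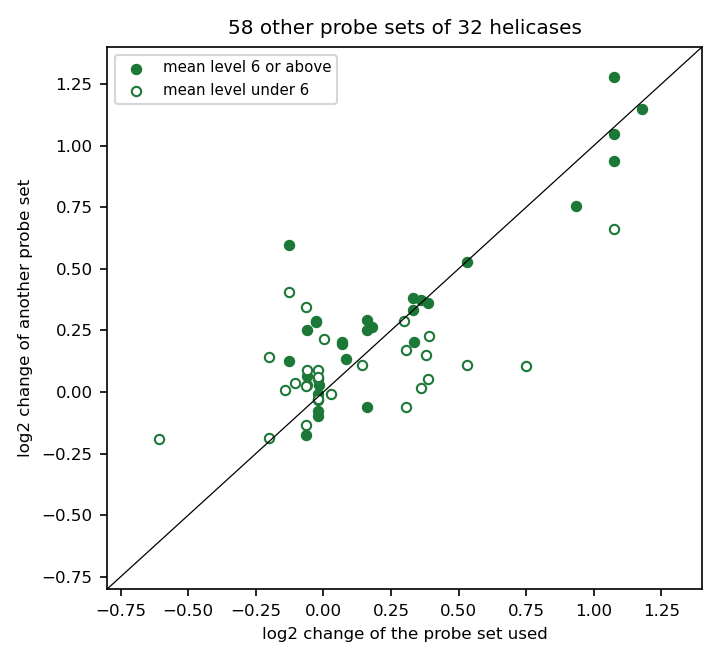
Log2 change (progesterone minus oil) of 58 other probe sets of 32 helicases against that of the probe set used for the same gene, with the line of equality. Filled points have a mean level of 6 or above. The points of Ddx39a, Ddx21 and Ddx31 lie at the upper right, and the 3 points of Ddx6 above the line have changes of 0.13, 0.60 and 0.41 against -0.13.

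Partners of these helicases were listed by function, with earlier results of these data known. Of 25 ribosome assembly factors 17 were higher and none lower, which leaves 8 (limma, 22 higher and 0 lower at an unadjusted p under 0.05), with a median log2 change of 0.61. Among all genes 5.92% were called higher and 5.83% lower, and 12.2% and 13.8% had an unadjusted p under 0.05 as higher and lower. Rrs1, which brings 5S RNA into the large subunit, rose 2.47-fold (log2 9.37 ± 0.181 to 10.67 ± 0.195, SD, n = 3 per group). Gnl3, or nucleostemin, rose 2.06-fold, and Nop58, a core protein of box C/D snoRNPs, rose by 1.00 on the log2 scale. Utp14a, which activates Dhx37 in yeast, had a change of 0.32 (adjusted p = 0.0647). Of 23 spliceosome proteins 1 was higher, Sf3a1 of the U2 snRNP with a change of 0.38, none was lower and 22 missed the threshold. At an unadjusted p under 0.05, 5 were up and 1 down (limma, against 12.2% and 13.8% of all genes). The change was positive in 15 of the 23, as it was in 46.3% of all genes. Their median was 0.17, against -0.017 over all genes.

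Of 17 helicase cofactors 4 were higher and 1 lower, against 5.92% and 5.83% of all genes, with a median of 0.08. Nkrf and Pinx1, nucleolar G-patch proteins, rose 1.81-fold and 1.60-fold, and Alyref, which works with Ddx39b and Ddx39a in mRNA export, rose 1.45-fold. Eif4b, a cofactor of the eIF4A helicase, fell 1.43-fold. Among 16 RNA helicases of other names 1 was higher and 0 lower, and this 6.25% was near the 5.92% of all genes called higher. At an unadjusted p under 0.05, 3 were higher and 1 lower (limma, against 12.2% and 13.8% of all genes). The 1 called was Eif4a1, the DEAD box helicase of translation initiation. Eif4a1 went from 11.95, 11.91 and 12.09 to 12.46, 12.71 and 12.74, a 1.57-fold rise. Its paralogue Eif4a2 had a change of -0.10. Over the 4 partner lists together, 23 of 81 genes were higher and 1 lower, against 5.92% and 5.83% of all genes.

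**Figure D4:**
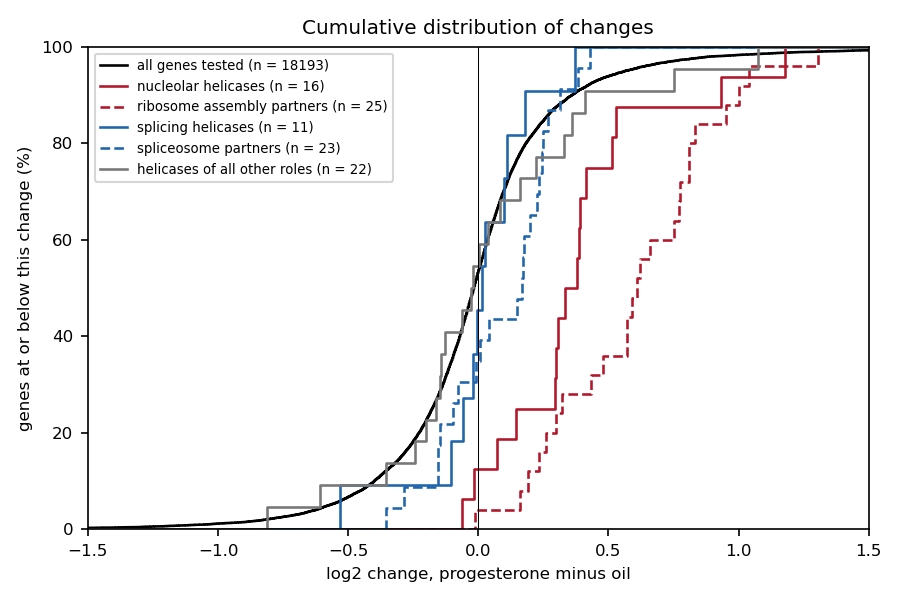
Share of genes (%) at or below each log2 change (progesterone minus oil) for all 18193 genes and for the lists of helicases (solid lines) and partners (dashed lines). The nucleolar helicases and the ribosome assembly partners (red) lie to the right of all genes, with medians of 0.36 and 0.61, and the splicing helicases (solid blue) have a median of 0.013.

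The count of 7 higher helicases was smaller with fewer arrays. It was 2 without oil replicate 1, oil replicate 2 or progesterone replicate 2, 3 without oil replicate 3, 4 without progesterone replicate 3 and 5 without progesterone replicate 1. The nucleolar count of 4 was 1 without any single oil array or progesterone replicate 2, 2 without progesterone replicate 3 and 3 without progesterone replicate 1. The partner count of 23 was 11, 10 and 13 without oil replicate 1, oil replicate 2 and progesterone replicate 2. Over all genes the count of higher calls went from 1077 to between 379 and 848 in the same fits. Without the 3 arrays with high S100a8, which leaves 2 oil arrays and 1 progesterone array, limma called 0 genes of any kind. The nucleolar change was then positive in 15 of 16 members, and the change over all genes in 8500 of 18193. The nucleolar median was 0.21, against 0.035 for the splicing helicases, 0.085 for those of all other roles and -0.02 over all genes. In that fit Ddx21 had a change of 1.14, Ddx39a of 1.04, Dhx29 of 0.65 and Dhx40 of -0.92, and Ddx18 of 0.32 against 0.53 over all arrays. The part of neutrophil, adipocyte, epithelial, endothelial, liver and proliferation transcripts in these results was not tested beyond these fits.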

How the data were processed

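Expression was measured on 6 one-colour Affymetrix arrays of biotinylated cRNA, 3 per group, per the labels. The authors deposited 1 table of 45101 probe sets on the log2 scale, made with Partek 6.6 and RMA, per the submitters' processing notes. Other settings are not given in the sources used here, and scanner files were not used, so the background correction could not be varied. The number of arrays limits the precision.

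Control probe sets (64), those with several gene symbols (932) and those with none (9160) were left out. The remaining 34945 probe sets gave 18193 genes, and of these probe sets 34741 had an identifier in the RefSeq table of GRCm38.p6, used for names, neighbours and promoters. In R 4.3.3, limma 3.58.1 (lmFit, then eBayes) was fitted to all genes without a filter or block, and p-values were adjusted by Benjamini-Hochberg with a threshold of 0.05, two-sided. The procedure was tested on simulated data.

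Members, roles, partner lists and markers were chosen with earlier results of these data known. Named were all members past the threshold, the 10 nucleolar members with the largest change, and Ddx50, Dhx15, Ddx39b, Ddx5, Ddx17, Ddx3x and Ddx6 in any case. Of each partner list, up to 3 genes past the threshold in each direction were named. Dhx35, Ddx28, Ddx60, Utp14a and Eif4a2, and the other members given by value, were chosen after their values were seen, as were the promoter motifs. Ddx3y was not analysed here.

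Both groups carry replicate numbers. Across genes, the correlation of the deviations of arrays with the same number was 0.523, 0.141 and 0.636. Each is above 0.1, taken here as pairing, a hint from the data since nothing says what a number shares. Against it, the value for oil replicate 2 and progesterone replicate 1 was 0.322, above that of the pair numbered 2. Values with the replicate block are printed where a call changed. Alternatives were other normalizations, an offset of 32, filters on dim genes, probe set rules, variance settings, stricter thresholds and leaving out arrays.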

Additional observations from a re-analysis of the deposited data

How the results depend on the processing

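With the replicate block, 8 helicases were higher (5 nucleolar) and 1 lower, and the block changed no call among the helicases other than that of Ddx51. Over all genes it called 1382 higher and 1545 lower. In the settings that lowered the counts, all genes called higher and lower numbered 328 and 243 at an adjusted p under 0.01, 674 and 642 at a change of at least 1.5-fold, and 586 and 441 without the arrays numbered 3. Helicases called higher numbered 2, 4 and 4 there, with 1, 2 and 2 nucleolar, 0 splicing in each, and 1, 2 and 2 of all other roles. Without the arrays numbered 3, 11 partners were higher and 0 lower. Without any single array, all genes called higher ranged from 379 to 848 and lower from 278 to 907. Helicases called higher ranged from 2 to 5, nucleolar ones from 1 to 3, those of all other roles from 1 to 2, and splicing ones stayed at 0. Partners ranged from 10 to 20 higher and from 0 to 1 lower. The fit without the 3 arrays with high S100a8, like that without the arrays numbered 3, was chosen after seeing the data. It called 0 genes higher or lower in every list (limma), and its lone progesterone array was assumed to vary like the oil arrays.

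Helicases called higher numbered 11 with an offset of 32, and 11 without the lowest 25% of genes by mean level. Those of all other roles numbered 4 in both settings, and 4 with quantile renormalization, centring or the mean of probe sets. With the offset 2 helicases were lower, both of other roles, and partners called lower numbered 2 with quantile renormalization and with either filter on dim genes. The nucleolar minus splicing difference of median levels became 0.58 with the mean of probe sets, and turned to -0.015 without the lowest 50% of genes and to -0.07 without the arrays with high S100a8. The cause was not tested. It ranged from 0.062 to 0.189 without any single array.

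Changes near 0 that missed the threshold turned positive in some settings. With centring Ddx39b was at 0.023 and Ddx5 at 0.023. With the mean of probe sets Ddx39b was at 0.012, Ddx17 at 0.034 and Ddx6 at 0.25. Without the arrays with high S100a8 Ddx39b was at 0.045, Ddx5 at 0.20, Ddx17 at 0.075 and Ddx6 at 0.16, and without the arrays numbered 3 Ddx5 was at 0.12 and Ddx17 at 0.05. Without any single array Ddx39b ranged from -0.065 to 0.01, Ddx5 from -0.10 to 0.067 and Ddx17 from -0.13 to 0.052. Ddx21, Dhx29 and Dhx40 passed 0.05 in each setting except that without the arrays with high S100a8. The 95% interval of a helicase reached a median of 0.26 to either side of its change, so smaller changes were mostly not detectable with 3 arrays per group. That width matches an unadjusted p of 0.05, and the adjusted threshold asked for more. The smallest change called was 0.37 (Ddx20), and changes of 0.33 (Ddx3x), 0.41 (Ddx28) and 0.51 (Dhx37) did not pass.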
